A study of Mus musculus with 12 samples.

Results

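Per3 stood between 33.5 and 119 FPKM in every KO embryo and control embryo library, and between 0.468 and 5.23 FPKM in the KO arrest libraries and the embryonic stem (ES) cells. It is 1 of 10 circadian clock genes described here, Per1, Per2, Per3, Cry1, Cry2, Arntl, Clock, Nr1d1, Nr1d2 and Dbp. All 10 were found by symbol among the 22619 gene symbols of each library. They were chosen by name, as the core genes of 1 pathway, with their FPKM in these embryo and ES cell libraries and the differences between groups already known, so the values of these 10 genes are a description and carry no p-value. FPKM scales fragments by transcript length and by library size, so different genes can be compared on it.

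The 12 libraries were made by Smart-seq2, which copies whole polyadenylated transcripts into cDNA from minute inputs. Embryos were of strain C57BL/6: 3 libraries were Dcaf11 knock out and carried the word arrest in their title (KO arrest), 3 were Dcaf11 knock out without that word (KO embryo), and 2 were wild type (control embryo). ES cells were of strain 129Sv: 2 libraries had Dcaf11 knocked down (KD ESC) and 2 were wild type (control ESC). The DCAF11 protein brings substrates to a cullin ubiquitin ligase. Neither stage, sex nor cell number is labelled, nor is the time of day of collection, on which the level of a clock gene can depend. They name neither the deleted part nor the means of the knockdown. Whether libraries of a group are separate embryos or cultures is not stated, so p-values here rest on a spread between libraries that may be technical.

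In mammalian cells the proteins CLOCK and BMAL1, the product of Arntl, form a dimer that binds E-box sequences and activates the Per and Cry genes. PER and CRY proteins then enter the nucleus and repress that dimer, which closes a daily loop of transcription and feedback. In an interlocking loop the nuclear receptors REV-ERBα (Nr1d1) and REV-ERBβ (Nr1d2), themselves E-box targets, repress Arntl through ROR response elements. DBP is an output activator that binds D-boxes, among them those of Per genes. Pluripotent stem cells and early embryos are known for lacking the sustained daily rhythm of differentiated tissues.

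The promoter sequences of the clock genes were searched for the letters of these elements. Of the 10 genes, 9 were matched by symbol in RefSeq's promoter windows, which run from 250 bases before to 50 bases after a gene's start in GRCm38.p6. Per2 was not in that table. Letters searched on both strands were the E-box CACGTG, its variant CACGTT, the D-box forms TTATGTAA and TTACGTAA, and AGGTCA, the core of a ROR response element. No matches overlapped each other. The Per3 window holds TTATGTAA 2 times, beginning 205 and 158 bases before the start. The Cry1 window holds CACGTG 60 bases before the start and CACGTT on the opposite strand (printed as AACGTG) 79 bases before it. The Nr1d2 window has AGGTCA 77 bases before the start. For these genes the 250 bases before the start are shown, and for Arntl the single AGGTCA, 31 bases after the start of the second of its 2 windows, with 12 bases on each side. Each runs 5′ to 3′ on the strand of its gene, and capitals mark the matches.
Per3, chr4:151044666-151044915, minus strand: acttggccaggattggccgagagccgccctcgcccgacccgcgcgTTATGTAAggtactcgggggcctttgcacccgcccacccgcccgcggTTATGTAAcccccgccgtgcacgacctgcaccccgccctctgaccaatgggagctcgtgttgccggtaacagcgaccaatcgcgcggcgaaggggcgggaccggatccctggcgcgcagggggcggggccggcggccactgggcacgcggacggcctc
Cry1, chr10:85185055-85185304, minus strand: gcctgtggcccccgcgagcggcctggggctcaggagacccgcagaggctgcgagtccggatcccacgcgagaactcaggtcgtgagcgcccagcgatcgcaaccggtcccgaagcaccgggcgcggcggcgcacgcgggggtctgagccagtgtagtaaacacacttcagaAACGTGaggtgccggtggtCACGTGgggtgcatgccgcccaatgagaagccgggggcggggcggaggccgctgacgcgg
Nr1d2, chr14:18239107-18239356, minus strand: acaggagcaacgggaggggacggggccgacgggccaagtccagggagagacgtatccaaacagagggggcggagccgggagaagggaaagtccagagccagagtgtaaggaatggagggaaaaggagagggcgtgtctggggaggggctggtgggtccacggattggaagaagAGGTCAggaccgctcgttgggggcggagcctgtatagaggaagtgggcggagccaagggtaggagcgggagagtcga
Arntl, chr7:113207530-113207559, plus strand: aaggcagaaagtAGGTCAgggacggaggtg
Of all 32851 RefSeq windows, 0.938% held TTATGTAA and 7 windows (0.0213%) held it at least 2 times. CACGTG occurred in 7.15% of all windows, CACGTT in 4.68%, AGGTCA in 16.3% and TTACGTAA in 0.119%. Among the 9 genes matched, CACGTG occurred in Per1 and Cry1, CACGTT in Cry1, Cry2 and Nr1d1, and AGGTCA in Per1, Arntl, Clock and Nr1d2. TTATGTAA occurred in Per3 and TTACGTAA in none of the 9. A match is a description of the letters, not a bound site.

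The libraries differed in depth: the coverage that corresponds to 1 FPKM, a relative measure of depth, ran from 0.373 to 2.01, and 6573 to 12061 symbols reached 1 FPKM. Read counts were not used here, so no counting interval is given, and a gene can be listed at 0 because its level was not estimated. The 2 control embryo libraries correlated at r = 0.774 across genes (genes being no independent replicates), and replicates of the other groups at 0.888 to 0.970. Dcaf11 stood at 4.43, 0.422 and 6.02 FPKM in KO arrest, 3.99, 2.84 and 0.184 in KO embryo and 2.82 and 14.3 in control embryo libraries, so the values of the whole gene do not check the embryo labels. In ES cells it was 1.69 and 1.83 FPKM in KD ESC and 6.48 and 4.52 in control ESC (log2 fold change −1.22 ± 0.21, limma adjusted p = 0.0521). All 8 pluripotency markers reached 1 FPKM in every ES cell library. In the embryos Cdx2, the defining trophectoderm gene, was under 1 FPKM in every library, while the 5 trophectoderm markers summed to 12.8 to 38.9 FPKM in KO arrest, 5.73 to 7.51 in KO embryo and 0.566 to 18.4 in control embryo libraries.

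The 3 Per genes encode the period proteins of the repressor complex. Per3 (mm9 chromosome 4, 150377764 to 150418731, minus strand) was at 5.23, 1.28 and 0.468 FPKM in KO arrest, at 33.5, 70.2 and 55.8 in KO embryo and at 119 and 66.1 in control embryo libraries. The ranges of KO embryo and control embryo overlapped, and every KO arrest library lay below both. In ES cells Per3 was at 0.712 and 0.929 FPKM in KD ESC and 0.750 and 1.04 in control ESC libraries, which overlapped each other and the KO arrest range. Mean Per3 was 2.33 ± 2.54 FPKM in KO arrest (SD, n = 3), 53.1 ± 18.5 in KO embryo (SD, n = 3) and 92.5 ± 37.4 in control embryo libraries (SD, n = 2). In KD ESC it was 0.820 ± 0.153 FPKM and in control ESC 0.897 ± 0.208 (SD, n = 2 each). The order of the means was control embryo, KO embryo, KO arrest, control ESC, KD ESC, and of the neighbours in it only KO embryo and KO arrest did not overlap. By its mean, Per3 stood above 64.3% of all symbols in KO arrest, 94.4% in KO embryo, 97.4% in control embryo, 46.1% in KD ESC and 45.7% in control ESC libraries. It was the highest of the 10 clock genes in KO embryo and control embryo libraries, the sixth in KO arrest and the ninth in both ES cell groups.

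Per1 and Per2 are the paralogues whose joint loss stops the daily rhythm of mice, and their levels were low. Per1 (chromosome 11, 68912458 to 68923459, plus strand) was at 1.75, 0.247 and 0.227 FPKM in KO arrest, 0.512, 1.02 and 0.945 in KO embryo and 0 and 2.03 in control embryo libraries. The control embryo pair spanned every other embryo value. In ES cells Per1 was at 3.66 and 3.02 FPKM in KD ESC and 2.81 and 3.15 in control ESC libraries, above all 8 embryo libraries. Per2 (chromosome 1, 93312559 to 93355905, minus strand) reached 1 FPKM in a single library, control embryo 2, at 1.68 FPKM, and was at or below 0.800 in the other 11. Its values were 0, 0.464 and 0.272 FPKM in KO arrest, 0, 0.800 and 0.224 in KO embryo and 0.0619 and 1.68 in control embryo libraries. In KD ESC they were 0.271 and 0.0458 FPKM and in control ESC 0.142 and 0.0477. Per2 was listed at 0 without an estimate in KO arrest 1 and KO embryo 1, and it did not enter the tests.

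By library, the make-up of the family was as follows. Per3 gave 74.9%, 64.3% and 48.4% of the summed FPKM of the 3 Per genes in KO arrest, 98.5%, 97.5% and 97.9% in KO embryo and 99.9% and 94.7% in control embryo libraries. In KD ESC its share was 15.3% and 23.3%, and in control ESC 20.3% and 24.6%, where Per1 was the main Per transcript.

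**Figure D1:**
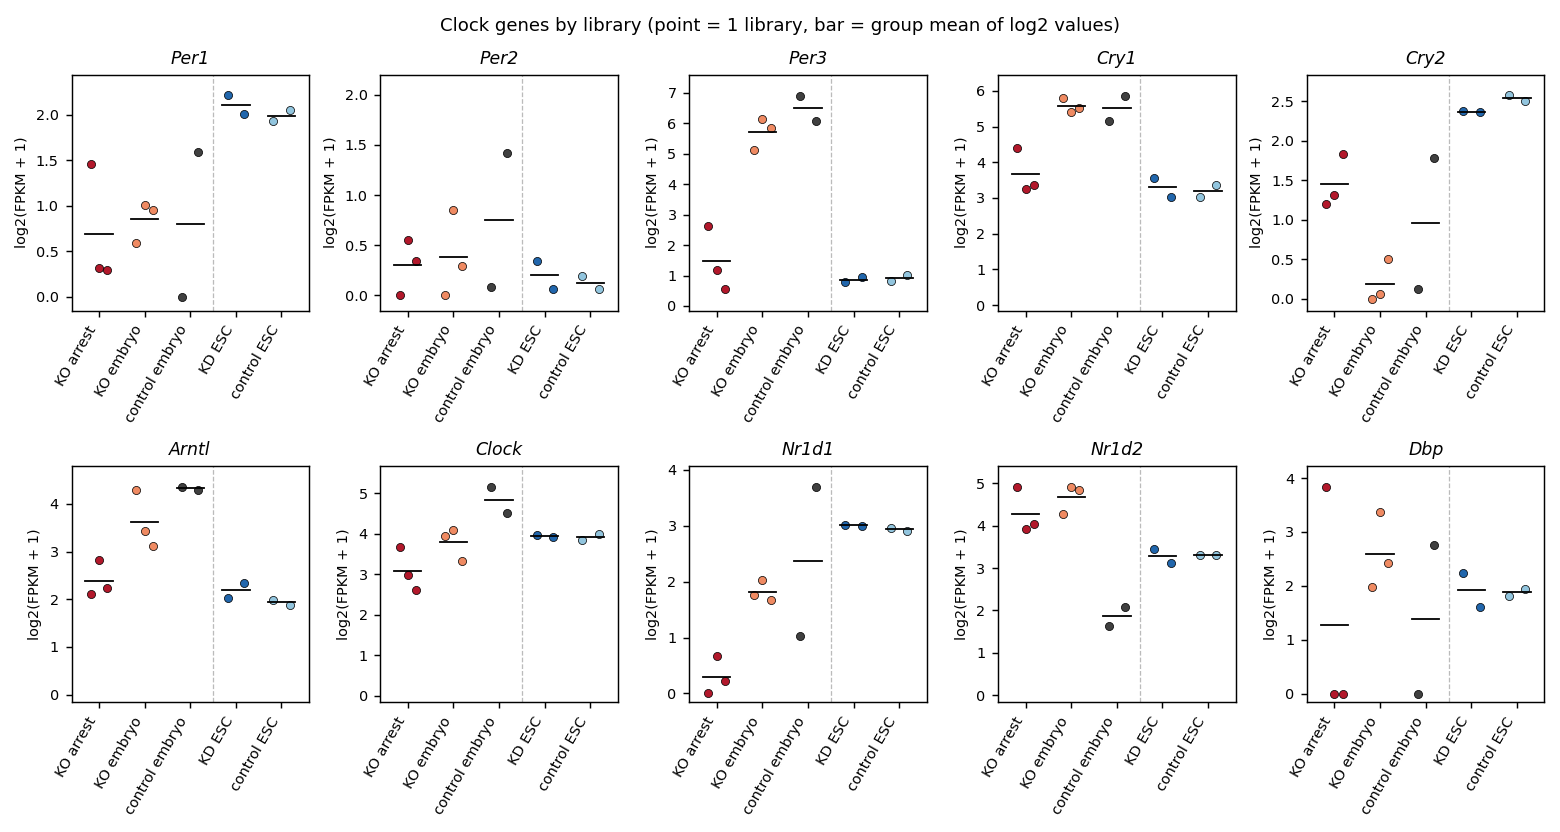
FPKM of each of the 10 clock genes in every library (points, 1 per library, on an axis of log2(FPKM + 1), with bars at the group means of the log2 values), with KO arrest, KO embryo, control embryo, KD ESC and control ESC from left to right. Per3 lies at 33.5 to 119 FPKM in KO embryo and control embryo libraries and at no more than 5.23 FPKM elsewhere, and Nr1d2 is lowest in the control embryo pair at 2.11 and 3.24 FPKM.

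Cry1 and Cry2 encode the cryptochromes, the partners of the period proteins. Cry1 (chromosome 10, 84594445 to 84647799, minus strand) was at 20.2, 8.47 and 9.38 FPKM in KO arrest, 54.7, 41.2 and 44.7 in KO embryo and 34.4 and 57.4 in control embryo libraries. All KO arrest values lay below all other embryo values, whose 2 groups overlapped. In ES cells it was at 10.7 and 7.22 FPKM in KD ESC and 7.14 and 9.32 in control ESC libraries. Cry2 (chromosome 2, 92243804 to 92274226, minus strand) was at 1.31, 1.48 and 2.57 FPKM in KO arrest, 0, 0.0428 and 0.414 in KO embryo and 0.0912 and 2.45 in control embryo libraries. Here the KO arrest libraries lay above the KO embryo libraries, and the control embryo pair spanned nearly the whole range. In KD ESC Cry2 was at 4.21 and 4.14 FPKM and in control ESC at 4.99 and 4.71. It overlaps D930015M05Rik on the opposite strand, which was at 1.88 and 1.94 FPKM in KD ESC, 0.890 and 1.57 in control ESC and at most 0.255 in embryo libraries. The use of strand in counting is not stated, so reads of the pair cannot be told apart. Cry1 made up 78.5% to 93.9% of the summed cryptochrome FPKM in KO arrest, 99.1% to 100% in KO embryo and 95.9% to 99.7% in control embryo libraries. Its share was 63.6% to 71.8% in KD ESC and 58.8% to 66.5% in control ESC libraries.

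Arntl and Clock encode the activating dimer. Arntl (chromosome 7, 120350979 to 120457640, plus strand) was at 3.30, 6.06 and 3.69 FPKM in KO arrest, 18.6, 9.85 and 7.70 in KO embryo and 19.5 and 18.6 in control embryo libraries. KO arrest was below both other embryo groups in every library. The ES cell libraries held 3.08 and 4.08 FPKM of Arntl in KD ESC and 2.95 and 2.69 in control ESC. Clock (chromosome 5, 76641202 to 76733573, minus strand) was at 11.8, 6.89 and 5.11 FPKM in KO arrest, 14.5, 16.2 and 9.08 in KO embryo and 34.8 and 22.0 in control embryo libraries. The 2 control embryo libraries were the highest of all, while KO arrest and KO embryo overlapped. In KD ESC Clock was at 14.8 and 14.2 FPKM and in control ESC at 13.5 and 14.8, and it was the highest of the 10 genes in both ES cell groups.

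Nr1d1 and Nr1d2 encode the REV-ERB repressors of Arntl. Nr1d1 (chromosome 11, 98629249 to 98636556, minus strand) was at 0, 0.594 and 0.170 FPKM in KO arrest, 2.39, 3.07 and 2.18 in KO embryo and 1.05 and 12.01 in control embryo libraries. The control embryo pair differed more from each other than KO embryo from either. In ES cells Nr1d1 held 7.12 and 6.98 FPKM in KD ESC and 6.79 and 6.48 in control ESC libraries. Nr1d2 (chromosome 14, 19036570 to 19071620, minus strand) was at 28.9, 14.2 and 15.3 FPKM in KO arrest, 18.5, 29.1 and 27.4 in KO embryo and 2.11 and 3.24 in control embryo libraries. All 6 knockout libraries were above the control embryo pair, and KO arrest and KO embryo overlapped. In KD ESC it was at 9.98 and 7.61 FPKM, and in control ESC at 8.85 and 8.89. Nr1d2 was the highest of the 10 genes in KO arrest and the seventh in control embryo libraries. Its share of the summed REV-ERB FPKM was 96.0% to 100% in KO arrest, 88.5% to 92.6% in KO embryo and 66.8% and 21.2% in control embryo libraries, and 52.2% to 58.4% in the 4 ES cell libraries.

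Dbp (chromosome 7, 52960617 to 52965573, plus strand), the output activator, was scattered within the embryo groups. It was at 13.3, 0 and 0 FPKM in KO arrest, 2.93, 9.33 and 4.34 in KO embryo and 0 and 5.77 in control embryo libraries, and at 3.72 and 2.04 in KD ESC and 2.53 and 2.85 in control ESC libraries. The 3 embryo groups overlapped each other, as did the 2 ES cell groups. Dbp overlaps Sphk2 on the opposite strand, which was at 13.6, 1.76 and 3.50 FPKM in KO arrest and likewise highest in KO arrest 1 among the embryo libraries, so this Dbp value is uncertain.

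**Figure D2:**
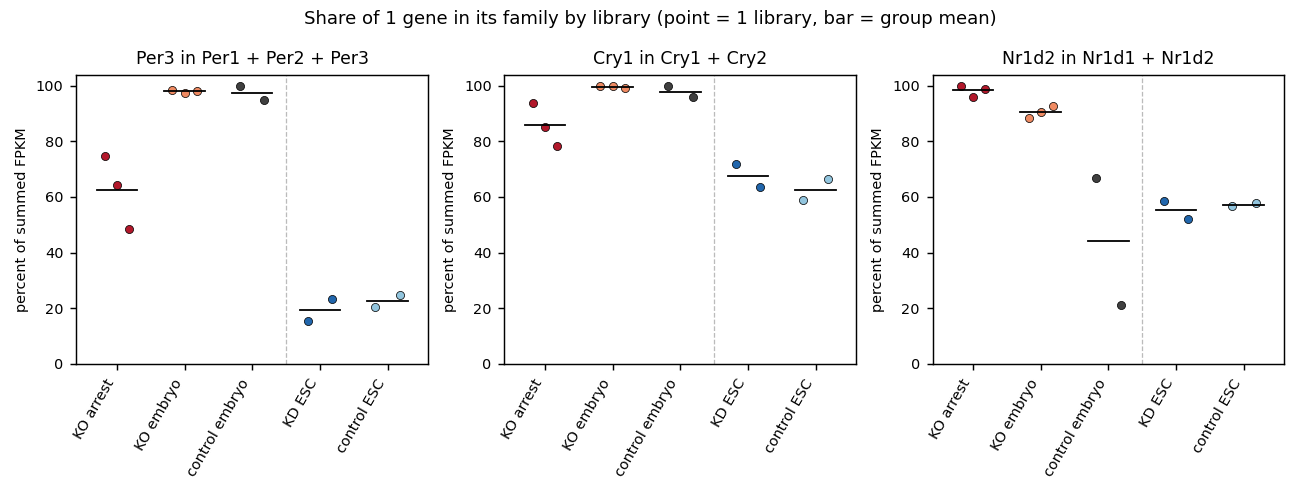
Percent of the summed family FPKM given by Per3 among the Per genes, Cry1 among the Cry genes and Nr1d2 among the REV-ERB genes (points, 1 per library, with bars at group means), with KO arrest leftmost and control ESC rightmost. Per3 makes up 94.7% to 99.9% of the Per sum in KO embryo and control embryo libraries and 15.3% to 24.6% in ES cells.

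Setting KO arrest against control embryo libraries asks which transcripts differ between knockout embryos marked as arrested and wild type. Per3 fell 39.8-fold by its mean FPKM, and Cry1 (3.62-fold), Arntl (4.39-fold) and Clock (3.58-fold) fell too, while Nr1d2 rose 7.26-fold. On the log2(FPKM + 1) scale of the fit, which understates changes of low genes and is used for all log2 fold changes here, Per3 changed by −5.03 ± 0.66 (SE; 95% interval −6.48 to −3.57). Cry1 changed by −1.83 ± 0.50, Arntl by −1.94 ± 0.57, Clock by −1.75 ± 0.55 and Nr1d2 by 2.42 ± 0.53. A gene was called at a limma adjusted p under 0.05 over all genes tested. Of 9 clock genes tested 1 was called higher and 4 lower, 5 in all, where 25.2% of all 11795 genes tested were called, 16.4% higher and 8.87% lower. The groups did not overlap for 1 of the 10 in the higher and 5 in the lower direction, as for 31.3% and 17.5% of all genes tested. Because these values helped to choose the genes, nothing is read from these counts. The median log2 fold change was −1.75 for the 9 genes and 0.45 for all genes tested. The 4 genes not called were Nr1d1 (−2.07 ± 0.77), Cry2 (0.50 ± 0.60), Per1 (−0.11 ± 0.62) and Dbp (−0.10 ± 1.21).

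The calls of Per3 and Nr1d2 in that comparison were kept with each library left out, Per3 at log2 fold changes of −5.61 to −4.57. These genes were chosen with their values known, so a kept call describes them and is no added support. The Cry1 call was lost without KO arrest 2 (−1.61), KO arrest 3 (−1.68) or control embryo 2 (−1.47), and the Arntl call without KO arrest 1 (−1.80), KO arrest 3 (−1.87) or control embryo 1 (−1.91). The Clock call was lost without KO arrest 2, KO arrest 3, any KO embryo library or control embryo 1, and over all libraries left out its log2 fold change ran from −2.07 to −1.43, and it was lost with no filter on low values too. With replicate number added to the fit (the replicate block), the Cry1, Arntl and Clock calls were lost. Nr1d1 was called lower without control embryo 1 and with median-of-ratios scaling, quantile normalization or all 12 libraries in the fit. Markers of oocytes, which the mother deposits in the egg, were lower in KO arrest as well: the 7 of them summed to 53.0 to 145 FPKM in KO arrest, against 572 to 1233 in control embryo libraries, with Zp2 under 1 FPKM in all KO arrest libraries. Between control embryo 1 and 2 the order differed, with Per3 at 119 and 66.1 FPKM and oocyte sums of 572 and 1233 FPKM. Blood markers (4 of 5 listed in the files) were at 0 in every KO arrest library and at 57.1 to 108 FPKM in control embryos, and 5 fibroblast markers at 0.0513 to 2.90 against 13.6 to 51.2. Of the blood markers Hba-a1 and Ptprc were under 1 FPKM in every library, so blood sums above 0 were mostly S100a8 and S100a9. The 5 cumulus cell markers summed to 0 to 2.65 against 12.3 to 17.1 FPKM, the 8 pluripotency markers to 1384 to 1978 against 650 to 711, and the 6 markers of the 2-cell stage to 178 to 616 against 477 to 738. Of the cumulus markers Amh, Fst, Has2 and Ptx3 were under 1 FPKM in every embryo library, so the control embryo sums were mostly Tnfaip6. In every KO arrest library 6 pluripotency markers and 2 of the 2-cell stage reached 1 FPKM. In both control embryo libraries 4 of each did. Coverage at 1 FPKM was 0.373 to 0.659 in KO arrest and 1.22 and 2.01 in control embryo libraries. The part of these in the result was not tested, and in such libraries fewer cells of a type and less RNA per cell cannot be told apart. In ES cells blood markers were at 0 and Per3 at 0.712 to 1.04 FPKM, and 6 of the 7 oocyte markers were under 1 FPKM in every ES cell library.

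**Figure D3:**
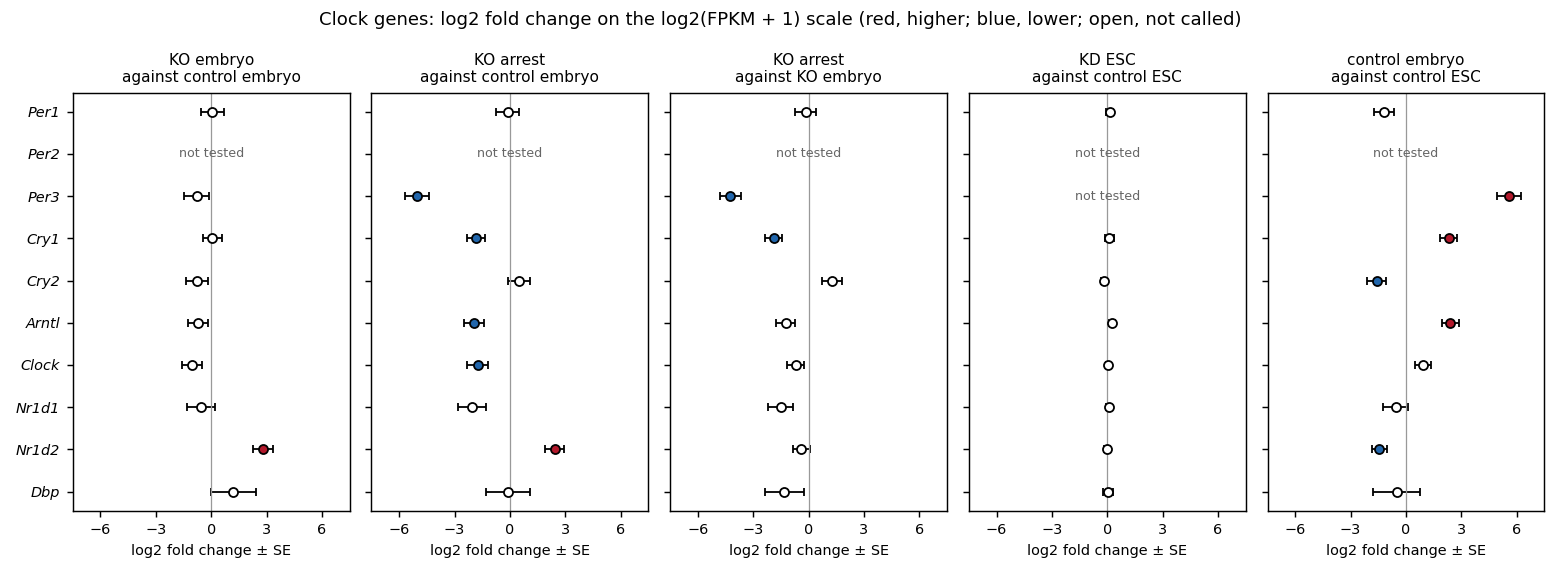
Log2 fold change of each tested clock gene (points; error bars, 1 SE from limma; horizontal axis, log2 fold change of FPKM + 1), with 1 panel per comparison and filled points for called genes. Per3 is at −5.03 in KO arrest against control embryo and at −4.24 in KO arrest against KO embryo, and in KD ESC against control ESC no gene is farther from 0 than 0.25.

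Setting KO arrest against KO embryo libraries asks what differs between the 2 kinds of knockout library. Per3 fell 22.9-fold and Cry1 3.69-fold by mean FPKM, with log2 fold changes of −4.24 ± 0.59 and −1.89 ± 0.45. These 2 of 9 clock genes were called lower and 0 higher, where 8.58% of all genes were called, 4.93% higher and 3.65% lower. These 1012 genes became 285 to 393 without KO arrest 2, KO arrest 3 or any 1 KO embryo library, and 1995 and 2023 without control embryo 1 and 2. The groups did not overlap for 1 of the 10 (Cry2) in the higher and 4 in the lower direction, as for 19.4% and 17.7% of all genes. The other 7 had log2 fold changes from −1.52 ± 0.69 for Nr1d1 to 1.27 ± 0.53 for Cry2, with Arntl at −1.23 ± 0.51, Clock at −0.71 ± 0.49 and Nr1d2 at −0.39 ± 0.47. Per1 (−0.17 ± 0.56) and Dbp (−1.31 ± 1.08) lay between them. The median was −1.23 for the 9 genes and 0.07 for all genes tested. The Per3 call was kept with each library left out (−4.82 to −3.78), and the Cry1 call was lost without KO arrest 2, KO arrest 3 or any of the 3 KO embryo libraries (−2.26 to −1.68 over all libraries left out). The Cry1 call was also lost with no filter on low values and with the replicate block. Without control embryo 2, Nr1d1 was called too. Oocyte markers summed to 53.0 to 145 FPKM in KO arrest and 224 to 312 in KO embryo libraries. Blood markers, in KO embryos mostly S100a8 and S100a9, summed to 0 against 199 to 299, and fibroblast markers to 0.0513 to 2.90 against 43.0 to 73.4. Summed markers of the 2-cell stage were higher by FPKM in KO arrest, at 178 to 616 against 92.9 to 170 FPKM in KO embryos. The factor from FPKM to TPM was 1.78 to 2.06 in KO arrest and 2.53 to 2.77 in KO embryo libraries. In TPM these 2-cell sums therefore overlap. Of the 6 markers of the 2-cell stage, 2 reached 1 FPKM in every KO arrest library and 4 in every KO embryo library, and Tcstv1 and Tcstv3 in none. Summed trophectoderm markers were higher in KO arrest too, at 12.8 to 38.9 against 5.73 to 7.51. Pluripotency markers (1384 to 1978 against 1683 to 3005) and cumulus markers (0 to 2.65 against 0.0534 to 2.68) overlapped. The part of these lists in the result was not tested. Both this and the comparison before it use the KO arrest libraries, so their values are not independent.

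Setting KO embryo against control embryo libraries asks what differs between knockout embryos without the arrest mark and wild type. Nr1d2 rose 9.35-fold by mean FPKM, at 25.0 ± 5.73 FPKM in KO embryo (SD, n = 3) and 2.68 ± 0.798 in control embryo libraries (SD, n = 2), with a log2 fold change of 2.81 ± 0.53. It was the 1 call among 9 clock genes tested, and 0 were called lower, where 6.36% of all genes were called, 4.86% higher and 1.5% lower. These 750 genes became 88, 270 and 87 without KO embryo 1, 2 and 3, 385 and 463 without KO arrest 2 and 3, and 1817 without control embryo 2. The groups did not overlap for Nr1d2 in the higher and for 2 genes, Arntl and Clock, in the lower direction, as for 24.2% and 12.1% of all genes. The Nr1d2 call was lost without KO embryo 1 (3.01), KO embryo 2 (2.69) or KO embryo 3 (2.74), although the value moved little. It was lost with the replicate block too. Per3 had a log2 fold change of −0.79 ± 0.66, Clock of −1.04 ± 0.55, Arntl of −0.71 ± 0.57 and Cry2 of −0.77 ± 0.60. For Nr1d1 it was −0.55 ± 0.77, for Cry1 0.06 ± 0.50, for Per1 0.06 ± 0.62 and for Dbp 1.21 ± 1.21. The median of the 9 was −0.55, and that of all genes tested 0.31. Pluripotency markers summed to 1683 to 3005 FPKM in KO embryo and 650 to 711 in control embryo libraries. Of the 8 on the list, 3 reached 1 FPKM in every KO embryo library and 4 in both control embryo libraries. Nanog was under 1 FPKM in every KO embryo library and Tdgf1 in both control embryo libraries. Blood markers, mostly S100a8 and S100a9, summed to 199 to 299 against 57.1 to 108. Markers of the 2-cell stage summed to 92.9 to 170 FPKM in KO embryo and 477 to 738 in control embryo libraries, and oocyte markers to 224 to 312 against 572 to 1233. Cumulus markers, mostly Tnfaip6 in control embryos, summed to 0.0534 to 2.68 against 12.3 to 17.1. Fibroblast markers, which overlapped, summed to 43.0 to 73.4 against 13.6 to 51.2. The part of these lists in the Nr1d2 value was not tested. These control libraries also served for KO arrest above, so the 2 comparisons share them.

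In ES cells the knockdown was set against control cells, which asks about the clock genes with less Dcaf11 in culture. As a description of the chosen genes, 0 of the 8 tested were called by limma and 0 had an unadjusted p under 0.05, and 6.23% of all 12264 genes tested were called, 2.59% higher and 3.64% lower (764 genes, but 13 without control ESC 1, 30 without control ESC 2 and 375 without KD ESC 1). The pairs did not overlap for Arntl and Nr1d1 in the higher and Cry2 in the lower direction, as for 25.3% and 37.1% of all genes. The log2 fold changes were Arntl 0.25 ± 0.19, Per1 0.12 ± 0.18, Cry1 0.10 ± 0.24, Nr1d1 0.08 ± 0.13, Dbp 0.04 ± 0.27, Clock 0.03 ± 0.11, Nr1d2 −0.02 ± 0.17 and Cry2 −0.18 ± 0.14. The 95% intervals bound these changes to between −0.27 and 0.33 for Clock, −0.47 and 0.43 for Nr1d2 and −0.54 and 0.74 for Cry1. Per2 and Per3, under or near 1 FPKM in all 4 libraries, were not tested. The effect of the knockout in KO embryos minus that of the knockdown in KD ESC was 2.84 ± 0.58 for Nr1d2, called higher in the fit of all 12 libraries. It was the 1 call among 9, where 2.69% of all 14447 genes were called, 2.06% higher and 0.623% lower (388 genes, but 39 to 222 without an ES cell library, 229 and 238 without KO embryo 1 and 3, 706 and 2020 without control embryo 1 and 2), and for Per3 the difference was −0.73 ± 0.88 (95% interval −2.69 to 1.23). The Nr1d2 call was lost without KO embryo 2 (2.72), KO embryo 3 (2.76) or any 1 ES cell library, at 2.61 to 3.06 over all libraries left out, and with TPM, median-of-ratios or quantile scaling. It was lost with the replicate block too.

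Control embryos were also set against control ES cells, which differ in strain, tissue and culture at once. Per3 (103-fold by mean FPKM), Arntl (6.77-fold) and Cry1 (5.58-fold) were higher in control embryos, with log2 fold changes of 5.57 ± 0.65, 2.39 ± 0.45 and 2.31 ± 0.46. Cry2 (−1.59 ± 0.50) and Nr1d2 (−1.44 ± 0.43) were lower. Thus 3 of 9 were called higher and 2 lower, where 53.4% of all genes were called, 12.6% higher and 40.8% lower. The pairs did not overlap for 4 of the 10 (with Clock) in the higher and 3 (with Per1) in the lower direction, as for 19.2% and 55.2% of all genes. Clock was 2.00-fold higher by mean FPKM but not called (0.92 ± 0.44), except with median-of-ratios (1.90) and quantile scaling (1.55). Also not called were Per1 (−1.19 ± 0.55), Nr1d1 (−0.56 ± 0.70) and Dbp (−0.50 ± 1.27). The Cry2 and Nr1d2 calls were lost without control embryo 1, control ESC 1 or control ESC 2, and with median-of-ratios (−1.12 and −0.61) and quantile scaling (−0.21 and −0.22). The Cry2 call was also lost with a pseudocount of 0.1 (−2.83), a minimum of 5 FPKM and only the 4 libraries compared. Without control embryo 2, Per1 and Nr1d1 were called as well. Oocyte markers summed to 572 to 1233 FPKM in control embryo and 1.25 to 1.95 in control ESC libraries, and their part in the result was not tested.

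A wider list of 30 genes that act with the core clock held its paralogues, kinases, ubiquitin ligase receptors and cofactors. This list too was chosen with earlier results of these data known, so its p-values are no independent support. Rorb and Hlf were under 1 FPKM in every library, and 25 genes were tested in the embryo comparisons. In KO arrest against control embryos 3 rose and 2 fell of these 25, or 5 in all, beside 25.2% of all genes tested (16.4% higher and 8.87% lower), so the list was near the share of all genes. Tef, a D-box activator of the same family as Dbp, was at 12.1, 4.54 and 6.05 FPKM in KO arrest and 0.221 and 1.22 in control embryo libraries (2.28 ± 0.64, called higher). In the fit of the embryo libraries Tef passed the filter only through the 2 knockout groups, where it is high, so no p-value is given. Nfil3, a repressor that competes for D-boxes, was at 3.95, 8.74 and 2.25 FPKM against 22.2 and 36.4 (−2.45 ± 0.62, limma adjusted p = 0.0167). Tef and Nfil3 thus moved in opposite directions, while the D-box activator Dbp was not called (−0.10 ± 1.21). Npas2, a paralogue of Clock that can replace it in the dimer, was listed at 0 in all 3 KO arrest libraries and at 1.31 and 3.59 FPKM in control embryos. It reached 1 FPKM in these 2 control embryo libraries alone, and without either of them it could not be tested. It thus passed the filter only through the group where it is high, so no fold change or p-value is given. It is 1 of the 2 genes counted as lower. Tipin, a partner of Timeless at replication forks, was at 570.7, 606 and 624 FPKM against 250.3 and 232 (1.31 ± 0.34, limma adjusted p = 0.0190), and Nono, an RNA-binding partner of PER proteins, at 66.5, 63.0 and 48.3 against 17.3 and 22.9 (1.51 ± 0.47, limma adjusted p = 0.0371). The 25 genes had a median log2 fold change of 0.49, beside 0.45 for all genes tested. Without control embryo 2 the Nfil3 call was lost (−2.11, adjusted p = 0.0537), as it was without KO arrest 3 (−2.08, 0.0526), with adjusted p between 0.00473 and 0.0537 over all alternatives by limma. The Tef call was lost without KO arrest 1, KO arrest 3 or control embryo 1, at log2 fold changes of 1.92, 2.37 and 1.85, and the Tipin call without KO arrest 2 (1.30) or KO arrest 3 (1.28). The Nono call was lost without any KO arrest library (1.42, 1.46 and 1.65), KO embryo 2 (1.51) or control embryo 1 (1.32). Both were no longer called with quantile normalization (Tipin 0.29 and Nono 1.05), TPM (0.81 and 1.04) and median-of-ratios scaling (0.57 and 0.79), and Nono with no filter.

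In KO embryos against control embryos 2 of the 25 rose and 0 fell, beside 6.36% of all genes called (4.86% higher and 1.5% lower), which is near the list's share. Tef was at 10.6, 7.24 and 7.47 FPKM in KO embryo and 0.221 and 1.22 in control embryo libraries (2.50 ± 0.64, called higher). Here too it passed the filter only through the knockout groups, so no p-value is given. Sirt1, a deacetylase that binds the CLOCK dimer, was at 115, 153 and 119 FPKM against 55.0 and 35.7 (1.51 ± 0.39, limma adjusted p = 0.0468). Both calls were lost without any 1 of the knockout libraries, the Tef call also without control embryo 1 (2.07) and the Sirt1 call without control embryo 2 (1.20). Over all libraries left out Tef ran from 2.07 to 2.93 and Sirt1 from 1.20 to 1.81. The Sirt1 call was also lost with median-of-ratios scaling (0.82, limma adjusted p = 0.350, range over alternatives 0.0143 to 0.350), quantile scaling (1.27), TPM (1.46), a pseudocount of 0.1 (1.53) and no filter on low values. The Tef call was lost with no filter, median-of-ratios (2.17) and quantile scaling (2.05). Both calls were lost with the replicate block. In KO arrest against KO embryos 0 of 25 were called by limma, beside 8.58% of all genes, and 1 had an unadjusted p under 0.05, the casein kinase gene Csnk2a2 (−1.21 ± 0.49, adjusted p = 0.151), and next came the ligase receptor gene Fbxl21. It was at 1.61, 0 and 4.86 FPKM in KO arrest and listed at 0 in all 3 KO embryo libraries, and it passed the filter only through KO arrest, so no fold change is given.

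In KD ESC against control ESC 1 of 23 rose and 1 fell, beside 6.23% of all genes called (2.59% higher and 3.64% lower), a like share. Ncor1, the corepressor that REV-ERB proteins recruit, was at 61.2 and 58.0 FPKM in KD ESC and 37.1 and 41.3 in control ESC libraries (0.59 ± 0.10, limma adjusted p = 0.0479). Tipin was at 25.6 and 29.0 FPKM against 48.1 and 46.1 (−0.77 ± 0.10, limma adjusted p = 0.0387). The Ncor1 call was lost with each of the 4 libraries left out (0.52 to 0.67), and the Tipin call without KD ESC 1 (−0.68), control ESC 1 (−0.74) or control ESC 2 (−0.80). Both were lost with all 12 libraries in the fit, with no filter and with the replicate block. The Ncor1 call was lost also with TPM (0.65) and a pseudocount of 0.1 (0.61). In control embryos against control ESC 3 of 25 rose and 11 fell, beside 53.4% of all genes called (12.6% higher and 40.8% lower), with a median of −0.76 beside −1.01 for all genes tested. Tipin (2.33, limma adjusted p = 9.17e-05) and Nfil3 (2.77, 0.00174) were higher. Npas2, the other gene counted as higher, again passed the filter only through the control embryo pair, so no fold change is given. The 4 lower with the smallest adjusted p by limma were Tef (−3.22, 0.000386), Nono (−2.43, 0.000528) and the kinase genes Csnk1d (−3.55, 0.000682) and Csnk2a1 (−2.12, 0.00115), whose products phosphorylate clock proteins. The Csnk2a1 call was lost with median-of-ratios scaling (−1.12).

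**Figure D4:**
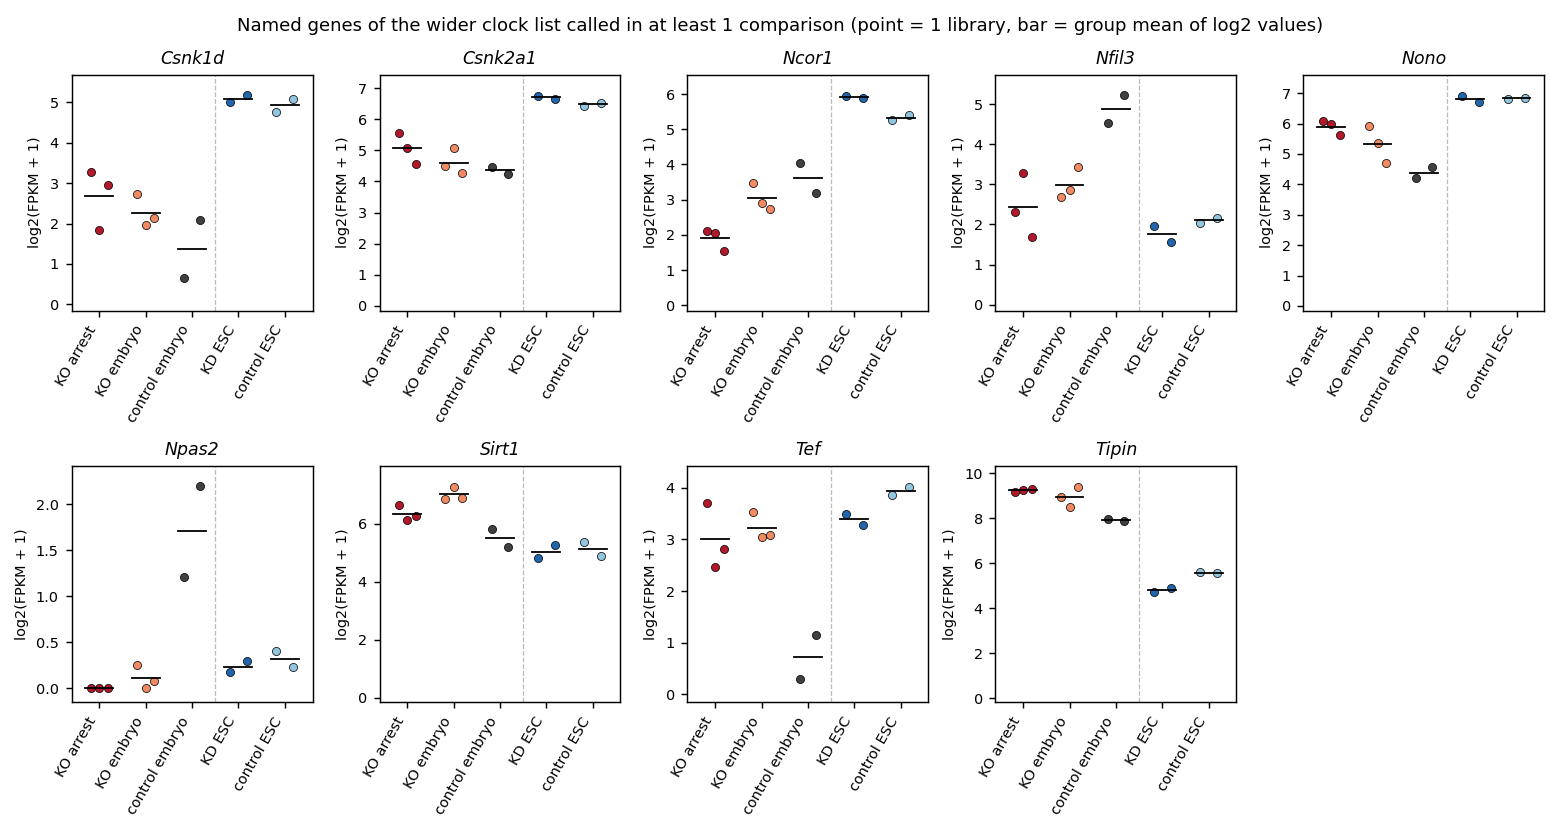
Levels of the named genes of the wider clock list that were called in at least 1 comparison (points, 1 per library, on an axis of log2(FPKM + 1), with bars at the group means of the log2 values), with KO arrest leftmost and control ESC rightmost. Tef is at 4.54 to 12.1 FPKM in the 6 knockout libraries and at 0.221 and 1.22 FPKM in the control embryo pair, whereas Nfil3 is highest in the control embryo pair at 22.2 and 36.4 FPKM.

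The 5 symbols whose pattern was most like that of Per3 were ranked by Pearson's r of log2(FPKM + 1) over the 12 libraries, among 14446 symbols. They were Gm10745 (r = 0.988), Sytl4 (0.986), Foxn2 (0.985), Fam84b (0.985) and Ube2d2a (0.984). Foxn2, a forkhead factor gene, averaged 80.8 FPKM in KO arrest, 676 in KO embryo, 951 in control embryo, 52.7 in KD ESC and 34.1 in control ESC libraries. Ube2d2a, which encodes a ubiquitin-conjugating enzyme, averaged 75.6, 639 and 1078 FPKM in the 3 embryo groups in the same order, and 66.1 in KD ESC and 79.8 in control ESC libraries. These are descriptions, since the 12 libraries fall into groups that differ in cell type and depth. Among the clock genes r with Per3 was 0.944 for Cry1 and 0.880 for Arntl, at ranks 111 and 363 of the 14446 symbols, so many symbols outside the clock followed Per3 more closely. For Clock it was 0.564, for Dbp 0.245, for Nr1d1 −0.0132, for Nr1d2 −0.0958, for Per1 −0.428 and for Cry2 −0.813.

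**Figure D5:**
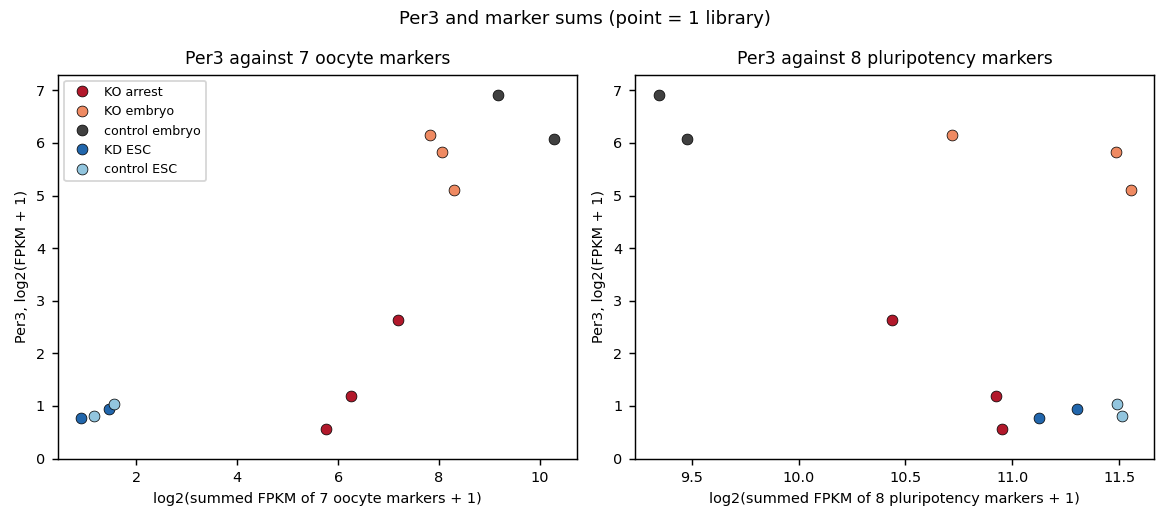
Per3 level (vertical axis, log2(FPKM + 1)) against the summed FPKM of 7 oocyte markers (left) and 8 pluripotency markers (right), on a log2 axis after adding 1, with 1 point per library and colours for the 5 groups. The KO arrest points, at oocyte sums of 53.0 to 145 FPKM, have Per3 at 0.468 to 5.23 FPKM. The ES cells, at oocyte sums of 0.879 to 1.95 FPKM, have Per3 at 0.712 to 1.04 FPKM.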

How the data were processed

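RNA of 8 embryo and 4 ES cell libraries was measured by Smart-seq2. Per the file headers the authors deposited FPKM, TPM and coverage for each gene. The submitters' processing notes name STAR (0.6.0), StringTie, DESeq2 and the build mm9, without roles. Annotation and strand are not given in these sources. The deposited TPM values are FPKM multiplied by 1 factor per library (1.78 to 2.93), which was lowest in the KO arrest libraries (1.78 to 2.06). The deposited coverage signal stood in 1 fixed ratio to FPKM (within 1%) in 88.4% to 89.1% of genes, and that ratio served as relative depth.

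Between 227 and 339 unnamed rows per library (0.549% to 1.19% of FPKM) were left out, and 46 or 47 symbols with several loci were summed. Genes reaching 1 FPKM in 2 or more libraries were fitted as log2(FPKM + 1) with limma 3.58.1 (R 4.3.3, trend) and Benjamini-Hochberg adjustment, called under 0.05. The 8 embryo libraries formed 1 fit (5 residual degrees of freedom), the ES cells another (2), and comparisons across both used all 12 (7). The fit was tested on simulated data. The 10 genes and all lists were chosen with earlier results of these data known. All 10 are named. Of the wider list, 1 gene is not reported here, and genes called are named, at most 4 each way, or otherwise the 2 with the smallest p. Alternatives were other pseudocounts, filters, scalings, sets of libraries, a replicate block and each library left out. Tables were made with pandas 2.3.3 and numpy 2.4.6 in Python 3.11.15, and figures with matplotlib 3.10.9.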

Additional observations from a re-analysis of the deposited data

Results flagged for a closer look

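The difference between KO embryo and control embryo libraries was set against that between KD ESC and control ESC libraries by the interaction term of the limma fit of all 12 libraries, and 3 genes passed it. These were 1 of 9 clock genes and 2 of 25 genes of the wider list, all higher. Of all 14447 genes tested 2.69% were called, 2.06% higher and 0.623% lower, and nothing is read from these counts. Tef and Tipin among them are of the wider list, which was chosen with earlier results of these data known. Nr1d2 is one of the genes chosen with these values in view, so its value is a description and no test: the effect in KO embryos minus that in KD ESC was 2.84 ± 0.58 on the log2 scale. All 3 KO embryo libraries lay above both control embryos, while the 2 KD ESC libraries at 9.98 and 7.61 FPKM spanned the control ESC libraries at 8.85 and 8.89.

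For Tef the same difference was 3.05 ± 0.66 (limma adjusted p = 0.0430, range over alternatives 0.00979 to 0.188). Tef was at 10.3 and 8.70 FPKM in KD ESC and 13.5 and 15.3 in control ESC libraries. For Tipin it was 1.79 ± 0.38 (limma adjusted p = 0.0396, range over alternatives 0.0207 to 0.325). Tipin was at 486, 362 and 668 FPKM in KO embryo and 250.3 and 232 in control embryo libraries, all higher in KO embryos, and at 25.6 and 29.0 in KD ESC against 48.1 and 46.1 in control ESC, both lower in KD ESC. All 3 were no longer called without any 1 of the 4 ES cell libraries or with the replicate block. Nr1d2 was also not called without KO embryo 2 or KO embryo 3 (2.61 to 3.06 over all libraries left out), with TPM (2.98), median-of-ratios (2.23) or quantile scaling (2.11). The Tef call was also lost with a pseudocount of 0.1 (4.29) and without KO arrest 3, any KO embryo library or control embryo 1 (2.62 to 3.48). The Tipin call was also lost without KO arrest 2, KO arrest 3, KO embryo 1 or KO embryo 3 (1.57 to 2.01), and with median-of-ratios (1.03) and quantile scaling (1.68).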

How the results depend on the processing

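No called value changed direction under any alternative run. Per3 and Nr1d2 in KO arrest against control embryos and Per3 in KO arrest against KO embryos were called under each of them, Per3 at −5.85 to −4.83 in the first without libraries left out. As both genes were chosen with their values known, this is a description and no added support. Counts of called clock genes moved by over 1.5 times as follows. In KO embryos against control embryos (1) the count was 0 with the replicate block. In KO arrest against control embryos (5) it was 2 with the block, and against KO embryos (2) it was 1 with no filter and 1 with the block. The interaction count (1) was 0 with TPM, median-of-ratios, quantile scaling and the block. For the wider list, KO embryos against control embryos (2) gave 1 with a pseudocount of 0.1, 0 with no filter, 1 with quantile scaling, 0 with the block and 5 with all 12 libraries. KO arrest against control embryos (5) gave 1 with the block, and KO arrest against KO embryos (0) gave 1 with all 12 libraries. KD ESC against control ESC (2) gave 1 with a pseudocount of 0.1, 0 with no filter, 1 with TPM, 0 with the block and 0 with all 12 libraries. The wider interaction count (2) was 1 with a pseudocount of 0.1 and 0 with the block. With each library left out the clock gene counts ran from 0 to 1, 2 to 4, 1 to 3, 0 to 0, 3 to 7 and 0 to 1, in the order KO embryo and KO arrest against control embryo, KO arrest against KO embryo, KD ESC against control ESC, control embryo against control ESC, and interaction. The wider counts ran from 0 to 1, 1 to 5, 0 to 0, 0 to 1, 11 to 15 and 0 to 2. The cause of these moves was not tested. A lone library left in a group was assumed to vary like the other groups. Same-numbered libraries correlated at −0.101 to 0.0247 after group means were removed, and 2 of 6 KO arrest and KO embryo libraries correlated best with their own number. With 2 or 3 libraries a group, deviations from the group mean are tied to each other, so this check cannot exclude a pairing. With each library left out, counts over all genes ran from 87 to 1817, 1983 to 3636, 285 to 2023, 13 to 686, 5682 to 8651 and 39 to 2020, in the same order. Counts over all genes with the block were 76 against 750 in KO embryos, 1965 against 2976 in KO arrest, 550 against 1012 between them, 26 against 764 in ES cells and 127 against 388 for the interaction. The share of calls that were higher was 76.4% in KO embryos against control embryos, 35.3% with median-of-ratios and 56.9% with quantile scaling. In KO arrest against control embryos it was 64.9%, with TPM 1294 of 2588 calls, 45.1% and 48.9% with those 2 scalings, and against KO embryos 57.4%, 29.0% with TPM and 47.1% with quantile scaling. It was 41.6% in KD ESC and 55.1% with median-of-ratios. In control embryos against control ESC it was 23.6%, 37.7% and 45.7% with these 2 scalings, and for the interaction 76.8%, 38.8% and 61.9%. Median-of-ratios scaling moved the median of all genes by −0.36, −0.42 and 0.59 in KO embryos, KO arrest and control embryos (against ESC), and quantile scaling by −0.27, −0.38 and 0.93. Depth is known only in relative terms, which limits what a value under 1 FPKM can show.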
